A study of Mus musculus with 6 samples.

Results

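The genes described here are 10 transcripts of heart muscle, measured by bulk RNA-Seq in the ductus arteriosus (DA), the fetal artery that joins the pulmonary artery to the aorta. They are *Myh6*, *Myh7*, *Myl2*, *Myl3*, *Myl4*, *Myl7*, *Tnnt2*, *Tnni3*, *Nppa*, and *Nkx2-5*, and all 10 had a row among the 23997 genes of the deposited table. Each was found by its gene symbol. The DA of C57BL/6 embryos was taken at E17.5 (E for embryonic day), without treatment, from 2 genotypes with 3 libraries each. The libraries labelled wild type are called WT0, WT1, and WT2, and those labelled Prdm6f/f; SM22-Cre are called KO0, KO1, and KO2, as in their titles. In the latter, Cre driven by the *SM22* (*Tagln*) promoter is used to remove both floxed copies of *Prdm6* from smooth muscle cells (SMCs). The labels do not say whether a library holds the DA of 1 embryo or of several, so p values measure the spread between these libraries only. The 10 genes were chosen by their FPKM values in these same 6 libraries, as genes of heart muscle that were high in some of them, and WT1 and KO2 were singled out on the same values. The levels by library are therefore given as a description, without a test.

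Heart muscle contracts through sarcomeres, in which myosin filaments pull on actin filaments under the control of troponin. Each myosin molecule joins heavy chains with essential and regulatory light chains, and the atria and the ventricles use different genes for each of these subunits. In the late mouse fetus *Myh6*, *Myl7*, and *Myl4* mark atrial muscle and *Myh7*, *Myl2*, and *Myl3* mark ventricular muscle, whereas cardiac troponins are made in both. Smooth muscle of an artery uses other myosin genes, such as *Myh11*. Muscle of the atrial type also sheathes the pulmonary veins of the mouse, near the DA, and the *SM22* promoter is active for a time in the embryonic heart as well as in SMCs.

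Because the atrial and the ventricular subunits are paralogs, the comparison between them depends on how well their reads can be told apart. The most alike ungapped 60 bases of each pair of coding sequences are shown here to make that visible, with capitals for the bases that differ within the pair. They were read from the GENCODE transcripts of GRCm38, on the strand of the gene.
*Myh6*, coding bases 214 to 273, chr14:54963968-54964027, minus strand, 1 exon: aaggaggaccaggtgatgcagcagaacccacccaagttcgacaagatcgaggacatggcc
*Myh7*, coding bases 214 to 273, chr14:54992312-54992371, minus strand, 1 exon: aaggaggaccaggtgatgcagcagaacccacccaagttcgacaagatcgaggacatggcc
*Myl7*, coding bases 82 to 141, chr11:5898212-5898461, minus strand, across 2 exons: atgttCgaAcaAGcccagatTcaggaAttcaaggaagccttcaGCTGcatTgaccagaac
*Myl2*, coding bases 58 to 117, chr5:122101803-122102719, plus strand, across 2 exons: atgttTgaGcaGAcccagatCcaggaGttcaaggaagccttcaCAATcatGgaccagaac
*Myl4*, coding bases 385 to 444, chr11:104584522-104584581, plus strand, 1 exon: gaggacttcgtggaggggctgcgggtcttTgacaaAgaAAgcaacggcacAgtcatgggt
*Myl3*, coding bases 418 to 477, chr9:110767991-110768050, plus strand, 1 exon: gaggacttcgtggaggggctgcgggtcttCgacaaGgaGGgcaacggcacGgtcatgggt

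The heavy chain pair was the closest. *Myh6* (chr14:54941921-54966927) and *Myh7* (chr14:54970684-54994626) lie next to each other on the minus strand, and the window shown for them has 0 differences. Their coding sequences of 5817 and 5808 bases were 91.7% identical over the aligned bases, and their longest shared run was 245 bases. Of the stretches of 45 bases in *Myh6*, the shortest read length that the authors kept, 26.1% also occurred in *Myh7*. Reads from these stretches can be given to either gene, so a part of each value is uncertain, and the antisense gene *Mhrt* (chr14:54968678-54974349, plus strand) overlaps the end of *Myh7*. The light chains differ more. *Myl7* and *Myl2* were 64.9% identical with a longest shared run of 16 bases and 11 differences in the window, and *Myl4* and *Myl3* were 78.1% identical with a longest run of 29 bases and 5 differences in the window. For both light chain pairs, 0 stretches of 45 bases were shared.

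The values are FPKM (fragments scaled by transcript length and by the number of mapped fragments), which the authors obtained with Cufflinks after alignment to mm10. As FPKM holds no counts, sequencing depth is unknown. A guess from the spacing of low values gave 0.949 to 1.21 times that of WT1. It rested on only 89 to 258 genes a library, fewest in WT2, so it does not settle whether WT2 differed in depth. A value of 0 may stand for a failed estimate. Of the 3506 genes averaging 20 FPKM or more, 34 to 61 were at 0 in any one library. These include genes of small and ribosomal RNA, such as *Rn45s* at 0 in the WT libraries, and how many are failed estimates was not tested. WT2 had the most such zeros, and 11.2% of all tested genes were at 0 in it, against 1.01% in KO2. The targeted gene *Prdm6* was at 41.7, 48.4, and 19.8 FPKM in WT0, WT1, and WT2 and at 48.6, 27.1, and 15.4 FPKM in KO0, KO1, and KO2 (log2 fold change -0.32 ± 0.48, standard error, limma adjusted p = 0.833). These values overlapped between the genotypes, whereas the authors reported less *Prdm6* transcript in the DA of such mice by qRT-PCR. The reason for this difference was not tested, and the values do not check the labels, which were used as given. *Xist* was at 67.0, 0.053, and 0.043 FPKM in WT0, WT1, and WT2 and at 81.0, 82.8, and 0.047 FPKM in KO0, KO1, and KO2. The Y-linked *Ddx3y* was at 0, 24.0, and 23.4 FPKM in the WT libraries and at 26.4, 0.383, and 20.1 FPKM in the KO libraries. KO0 thus held both, whereas each of the other libraries was high in only 1 of these genes. WT1, WT2, and KO2, the libraries highest in summed heart muscle transcripts below, were also those with *Xist* near 0. The part of sex in the heart muscle values was not tested.

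*Myh6* encodes the fast myosin heavy chain of atrial muscle. It was at 3.77, 357, and 24.98 FPKM in WT0, WT1, and WT2 and at 5.94, 6.62, and 281 FPKM in KO0, KO1, and KO2. WT1 and KO2 thus stood far above the rest, with WT2 next, and each genotype held both low and high libraries. *Myh6* was the 144th most abundant of all genes in WT1 and the 9602nd in WT0.

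*Myh7*, the slow heavy chain of the fetal ventricle that slow skeletal muscle also makes, had another order. It was at 4.97, 12.7, and 43.5 FPKM in the WT libraries and at 9.55, 11.4, and 15.6 FPKM in the KO libraries. Its highest library was WT2, while WT1 lay close to the KO libraries. In WT1 and KO2 its neighbor *Myh6* was 28.1-fold and 18.0-fold higher than *Myh7*.

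The regulatory light chains, which bind the neck of the heavy chain, showed the same contrast. The atrial *Myl7* (chr11:5896637-5898782) was at 4.45, 187, and 44.4 FPKM in the WT libraries and at 15.2, 16.1, and 194 FPKM in the KO libraries. Like *Myh6*, it was highest in WT1 and KO2 and intermediate in WT2. The ventricular *Myl2* (chr5:122100951-122113472) was at 4.82, 16.3, and 124 FPKM in the WT libraries and at 17.4, 15.5, and 20.9 FPKM in the KO libraries. WT2 alone was high for *Myl2*, while the other libraries but WT0 lay within 15.5 to 20.9 FPKM.

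The essential light chains, which stiffen the same neck, followed this pattern with 1 departure. The atrial *Myl4* (chr11:104550663-104595753), which is also made in fetal skeletal muscle, was at 9.61, 349, and 46.7 FPKM in the WT libraries and at 41.0, 34.9, and 508 FPKM in the KO libraries. Its value in KO2 was the highest of any of the 10 genes in any library. The ventricular *Myl3* (chr9:110741861-110769798), which is shared with slow skeletal muscle, was at 1.60, 6.71, and 58.5 FPKM in the WT libraries and at 42.6, 12.1, and 35.8 FPKM in the KO libraries. WT2 was again the highest, but KO0 and KO2 were high too, and WT1 was the second lowest.

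The cardiac troponins were high in 3 libraries. *Tnnt2* (chr1:135836354-135852260), which anchors the troponin complex to tropomyosin, was at 13.6, 181, and 142 FPKM in the WT libraries and at 16.4, 12.9, and 139.9 FPKM in the KO libraries. *Tnni3* (chr7:4518305-4524229), the inhibitory subunit, was at 8.90, 142, and 56.2 FPKM in the WT libraries and at 14.7, 13.9, and 205 FPKM in the KO libraries. For both, WT1, WT2, and KO2 lay above WT0, KO0, and KO1. WT2 lay between WT1 and KO2 for *Tnnt2* and below both for *Tnni3*.

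The remaining genes were at or near 0. *Nppa* (chr4:148000722-148002079), which encodes atrial natriuretic peptide and is among the most abundant transcripts of atrial muscle, was listed at 0 in 5 libraries and at 0.588 FPKM in WT1. The libraries that were high in the atrial myosin genes were thus not high in *Nppa*, and whether its zeros are failed estimates was not tested. *Nkx2-5* (chr17:26838664-26845009), a transcription factor of heart muscle, was at 0.489, 1.90, and 0 FPKM in the WT libraries and at 0, 1.89, and 4.33 FPKM in the KO libraries. The set therefore holds 8 genes with clear signal and 2 at the low end, 1 of which, *Nppa*, averaged less than 1 FPKM and was not tested.

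**Figure D1:**
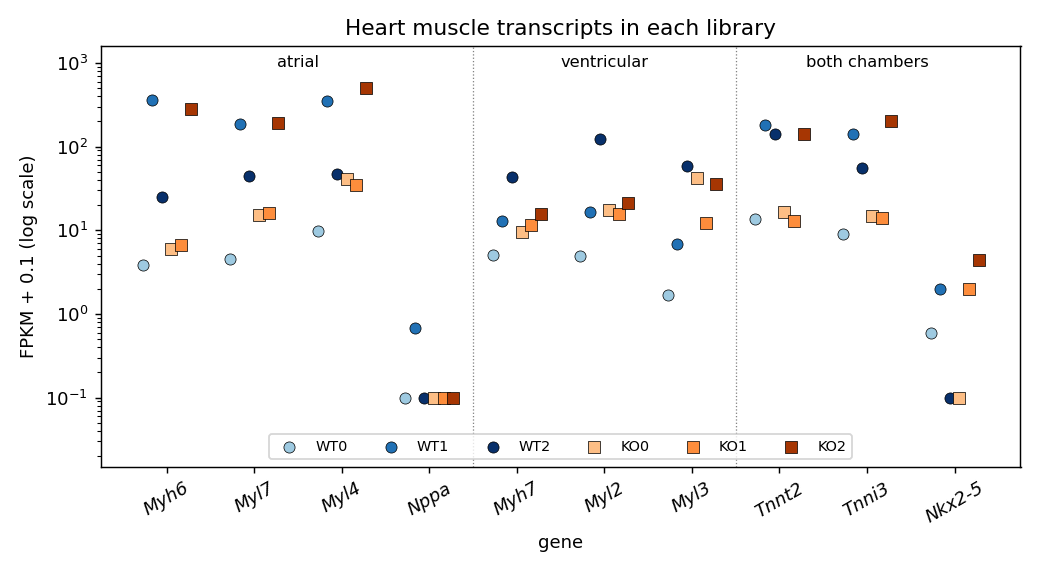
FPKM + 0.1 (log scale) of the 10 heart muscle genes in each of the 6 libraries, where circles are WT and squares are KO libraries and the dotted lines part the atrial, the ventricular, and the shared genes. WT1 and KO2 are highest for Myh6, Myl7, and Myl4, WT2 is highest for Myh7, Myl2, and Myl3, and Nppa is at 0 except in WT1.

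FPKM is scaled for transcript length, so the levels of paired genes can be compared within a library. In WT1 the atrial gene was above the ventricular one 28.1-fold for *Myh6* over *Myh7*, 11.5-fold for *Myl7* over *Myl2*, and 52.1-fold for *Myl4* over *Myl3*. In KO2 the ratios were 18.0, 9.31, and 14.2. In WT2 all 3 ratios were below 1, at 0.575, 0.359, and 0.799. The mean of the 3 log2 ratios of FPKM + 0.1 was 4.67 in WT1, 3.73 in KO2, and -0.87 in WT2. The heart muscle transcripts of WT1 and KO2 were thus mostly of the atrial kind, and those of WT2 leaned to the ventricular kind.

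The 3 libraries with little heart muscle transcript had mixed ratios. The mean log2 ratio was 0.67 in WT0, -0.31 in KO0, and 0.27 in KO1. In WT0 and KO1 *Myl4* stood above *Myl3*, 6.00-fold and 2.90-fold, while *Myh6* was below *Myh7* in both, and *Myl7* was nearly equal to *Myl2* in KO1 at a ratio of 1.04. In KO0 the atrial gene was the lower one in all 3 pairs, although *Myl4* and *Myl3* were nearly equal at a ratio of 0.962.

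**Figure D2:**
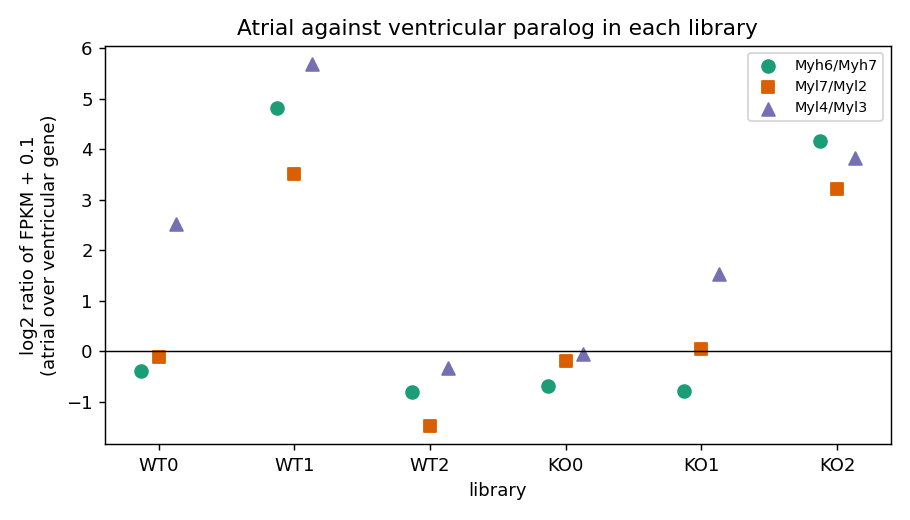
The log2 ratio of FPKM + 0.1 of the atrial over the ventricular gene in each library, for the heavy chains, the regulatory light chains, and the essential light chains. All 3 pairs lie above 3 in WT1 and KO2 and below 0 in WT2, and the line marks equal levels.

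Summed over the 10 genes, FPKM was 52.3, 1255, and 540.1 in WT0, WT1, and WT2 and 163, 125, and 1405 in KO0, KO1, and KO2. These sums were 31.0% of the summed FPKM of 15 smooth muscle genes in WT1, 13.6% in WT2, and 95.4% in KO2, against 0.689% in WT0, 4.52% in KO0, and 4.78% in KO1. More heart muscle cells and more RNA per heart muscle cell cannot be told apart in bulk RNA.

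WT1 and KO2 were close to each other although they come from different genotypes. The ratio of KO2 to WT1 lay between 0.774 and 1.46 for *Tnnt2*, *Myh6*, *Myl7*, *Myh7*, *Myl2*, *Tnni3*, and *Myl4*. It was 5.33 for *Myl3* and 2.28 for *Nkx2-5*, which is low in both. Across all 6 libraries, the log2 values of *Myh6*, *Myl4*, *Myl7*, and *Tnni3* had pairwise Pearson correlations from 0.94 to 0.98, and those of *Myh7* and *Myl2* had a correlation of 0.98. *Myh6* and *Myl2* had a correlation of 0.26. These are descriptions over 6 libraries of the same tissue, whose depths are unknown.

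The spread within a genotype was large for all of these genes. The pooled within-group SD of log2(FPKM + 0.1) had a median of 2.12 over the 9 genes tested, against 0.50 over all 12955 genes tested. *Myh6* had an SD of 3.22, larger than that of 98.6% of all genes tested, and *Myh7*, the least spread of the 9, had 1.13, larger than that of 79.4%.

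The comparison of the genotypes asks whether loss of *Prdm6* in SMCs went with a change in these transcripts. It used limma on log2(FPKM + 0.1) with Benjamini-Hochberg adjustment over all genes tested, in which 0.00772% of genes, 1 of 12955, had an adjusted p under 0.05. That gene was *Rn45s*, a ribosomal RNA precursor, listed at 0 in the 3 WT libraries and at 3060, 3806, and 4520.4 FPKM in the KO libraries. Small and ribosomal RNA genes together made up 8.02% to 31.2% of the summed FPKM in the WT libraries and 16.1% to 59.0% in the KO libraries, highest in KO2. The part of these differences in the values of the heart muscle genes was not tested beyond the scaling alternatives. None of the 9 tested heart muscle genes had such a p, with the lowest adjusted p at 0.702, and 0 of them had an unadjusted p under 0.05, against 8.28% of all genes. The groups overlapped for all 10 genes, whereas in 16.1% of all genes tested the groups of 3 did not overlap, with KO higher in 8.21% and lower in 7.84%.

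*Myh6* averaged 129 ± 198 FPKM (SD, n = 3) in the WT libraries and 97.7 ± 158 FPKM (SD, n = 3) in the KO libraries (log2 fold change -0.54 ± 1.91, standard error, limma adjusted p = 0.941). *Myl4* averaged 135 ± 186 and 195 ± 272 FPKM (SD, n = 3 each), and its log2 fold change was 0.73 ± 1.42 (standard error, limma adjusted p = 0.874). *Myl2* averaged 48.3 ± 65.5 and 17.9 ± 2.74 FPKM (SD, n = 3 each), and its log2 fold change was -0.27 ± 1.0 (standard error, limma adjusted p = 0.944). For *Myl2* the whole excess of the WT mean came from WT2. The most positive log2 fold change was that of *Myl3*, at 1.59 (standard error 1.17, limma adjusted p = 0.702), and the most negative that of *Tnnt2*, at -1.19 (standard error 1.17, limma adjusted p = 0.758).

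The median log2 fold change was -0.23 over the 9 genes, 4 of them positive, against 0.072 over all genes tested. Standard errors ran from 0.70 to 1.93, with a median of 0.41 over all genes, so a change of several fold in these transcripts was not detectable with these libraries. For single genes a two-sided exact permutation test over the libraries gave p values from 0.4 to 1, where 0.1 is the smallest it can give. Without WT1 and KO2, the log2 fold change of *Myl4* was 0.83 (standard error 0.72, limma adjusted p = 0.811) and that of *Tnnt2* was -1.59 (standard error 1.04, limma adjusted p = 0.787), and every tested gene kept its sign. With WT1 alone left out, the median over the 9 genes turned to 1.19, and with KO2 alone left out it was lower than with all libraries, so its direction rests on single libraries.

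**Figure D3:**
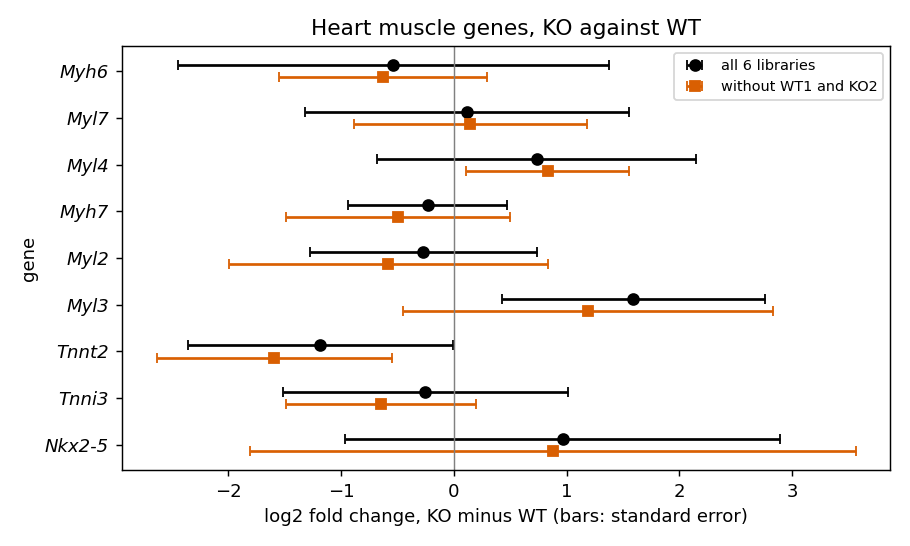
The log2 fold change of each tested heart muscle gene (KO minus WT, on log2(FPKM + 0.1)) from limma with all 6 libraries (circles) and without WT1 and KO2 (squares), where bars are standard errors. The values lie on both sides of 0 and no gene has an adjusted p under 0.05 in either fit.

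Other heart genes were taken from lists by function, 99 genes beside the 10, of which 81 averaged at least 1 FPKM. None had an adjusted p under 0.05 in limma between the genotypes, and 2 had an unadjusted p under 0.05, against 8.28% of all genes tested. These were *Srf*, a transcription factor shared by all muscle (log2 fold change -0.95, standard error 0.24, limma adjusted p = 0.463), and *Hopx*, a cofactor of it (log2 fold change 3.501, standard error 1.39, limma adjusted p = 0.591). Of the 81 genes, 38 (46.9%) were higher in WT1 and KO2 than in every other library, against 6.56% of all genes tested. In 16 (19.8%) WT1 and KO2 each stood at least 4-fold above both other libraries of their genotype, against 0.417% of all genes tested, and 3 of the 9 tested heart muscle genes, *Myh6*, *Myl4*, and *Myl7*, also did. WT1, WT2, and KO2 all stood above the other 3 libraries for 6 of the 9, against 5.01% of all genes tested. Both libraries were chosen for this pattern, so these shares describe it and test nothing.

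Among 20 tested sarcomere genes beyond the 10, 15 were highest in KO2 and 3 in WT1. *Ttn*, which encodes the giant spring protein titin, was at 0.885, 92.7, and 1.57 FPKM in the WT libraries and at 1.64, 4.38, and 83.7 FPKM in the KO libraries. *Actn2*, the cross-linker of the sarcomere's ends, was at 1.18, 33.5, and 0.150 FPKM in the WT libraries and at 2.99, 8.06, and 45.8 FPKM in the KO libraries. Both were high in WT1 and KO2 and low in WT2, where *Tnnt2* was high. *Actc1*, the cardiac actin, was at 11.4, 344, and 93.3 FPKM in the WT libraries and at 71.6, 42.0, and 460 FPKM in the KO libraries, an order close to that of *Myl4*.

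The sarcomere genes differed in the size of this pattern. *Myom1*, which cross-links myosin filaments, did not have it and was between 57.6 and 89.2 FPKM in all 6 libraries. *Tnnc1*, the calcium-binding troponin, was highest in WT1 and KO2 by less, at 96.2, 193, and 106 FPKM in the WT libraries and at 85.1, 33.5, and 207 FPKM in the KO libraries. *Tnni1*, the troponin inhibitor of fetal heart and slow skeletal muscle, was listed at 0 in WT0 and was at 88.4 and 11.7 FPKM in WT1 and WT2 and at 14.4, 9.62, and 121 FPKM in KO0, KO1, and KO2.

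Of 18 tested genes of calcium handling and electrical current, 9 were higher in WT1 and KO2 than in every other library, against 6.56% of all genes tested. In 4 of them both stood at least 4-fold above the libraries of their genotype, against 0.417% of all genes tested. *Casq2*, which stores calcium in the sarcoplasmic reticulum, was at 25.9 FPKM in WT1 and 29.1 FPKM in KO2 and at no more than 0.615 FPKM elsewhere. *Sln*, an inhibitor of the calcium pump made in atrial muscle, was at 5.03 FPKM in WT1 and 30.6 FPKM in KO2 and was listed at 0 in the other libraries. *Pln*, its ventricular counterpart, was at 2.88, 4.44, and 13.7 FPKM in the WT libraries and at 7.12, 4.995, and 10.6 FPKM in the KO libraries, with WT2 highest. The calcium channel gene *Cacna1c*, which SMCs also use, stayed between 7.46 and 11.8 FPKM. *Jph2* and *Hrc*, which act at the calcium store, were at 7.16 and 12.2 FPKM in KO2 and reached 17.3 and 23.1 FPKM in WT0 and WT1.

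Of 12 tested genes on the atrial list, which also holds *Myl4* and *Myl7*, 5 were higher in WT1 and KO2 than in every other library. Of these, *Kcnj3*, a potassium channel that slows the heartbeat, was at 7.55 FPKM in WT1 and 4.996 FPKM in KO2 and at no more than 0.521 FPKM elsewhere. *Tbx5*, a transcription factor of the atria and the left ventricle, was at 10.9 FPKM in WT1 and 13.5 FPKM in KO2 and at no more than 3.67 FPKM elsewhere. *Gja5* and *Nr2f2*, which vessels also express, did not follow them, with *Gja5* highest in KO1 at 36.4 FPKM and *Nr2f2* at 53.7 FPKM in WT2 and 54.5 FPKM in KO2. *Kcna5*, a potassium channel, was highest in WT2 at 17.2 FPKM and lowest in KO2 at 4.004 FPKM, and *Dkk3*, a secreted protein, was lowest in KO2 at 37.6 FPKM against 107 FPKM in WT1.

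Most ventricular genes beyond the 3 of the pairs were little detected. *Nppb* was listed at 0 in all 6 libraries, *Irx4* was at 0.162 FPKM or less, and *Hand1* was at 1.16 FPKM in WT2 and 0.353 FPKM or less elsewhere. *Hey2*, which arteries express too, was between 34.2 and 64.5 FPKM. Of the 6 tested genes of this list, WT2 was highest for *Myh7*, *Myl2*, *Myl3*, *Pln*, and *Lbh*, a cofactor that other tissues make too, which was at 37.9, 55.9, and 89.9 FPKM in the WT libraries and at 76.1, 50.9, and 32.5 FPKM in the KO libraries. WT2 was the highest library for 25.6% of all genes tested.

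Set against WT1, KO2 and WT2 differed in how evenly the heart genes held. Of 72 tested heart genes with at least 5 FPKM in WT1, among them 8 of the 10, 63 (87.5%) were within 2-fold of WT1 in KO2, and 93.2% of all such genes were. In WT2, 35 (48.6%) were within 2-fold, against 78.2% of all such genes, and 11 (15.3%) were listed at 0, against 3.57%. *Myl2* and *Myl3* were the 2 of the 72 that were over 4-fold higher in WT2 than in WT1. The 72 genes were picked by their level in WT1, a library singled out for high heart muscle values. Lower values in WT2 are thus in part built in, and heart genes low in WT1 but high in WT2 could not enter. Across the 48 of these genes in the sarcomere, calcium, and metabolism lists or among those 8, transcript length had a Spearman correlation of 0.016 with the log2 ratio of WT2 to WT1.

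**Figure D4:**
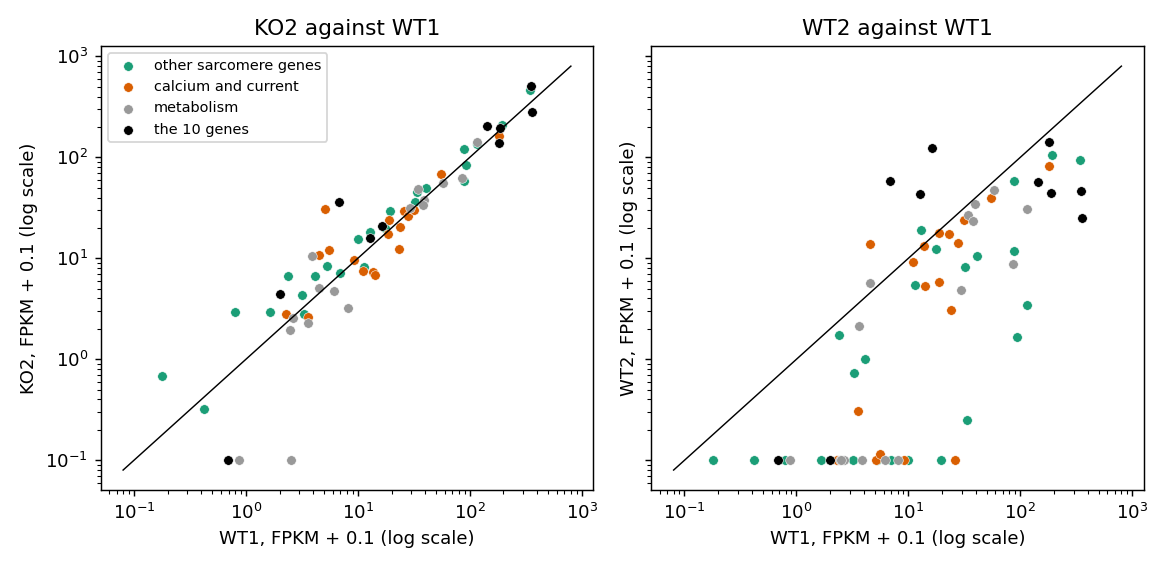
FPKM + 0.1 (log scale) of the 10 heart muscle genes and of 3 lists of other heart genes in KO2 (left) and WT2 (right) against WT1, with a line of equal values. Most points of KO2 lie along the line, while most points of WT2 lie below it, some at 0, and Myh7, Myl2, and Myl3 lie above it.

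Genes on the skeletal muscle list were mostly low. Of 21 such genes in the table, summed FPKM was 56.8, 113, and 40.0 in the WT libraries and 33.0, 46.8, and 114 in the KO libraries. *Myl1*, a light chain that fetal atria make too, was at 60.001 FPKM in WT1 and 68.2 FPKM in KO2 and made up most of those 2 sums. *Myod1* and *Pvalb* were listed at 0 in all 6 libraries, *Myog* was at 1.69 FPKM or less, and the adult fast heavy chains *Myh1*, *Myh2*, and *Myh4* were at 0.327 FPKM or less. Other genes of the list were detected, with *Acta1*, the skeletal actin, at up to 17.8 FPKM, *Myh3*, the embryonic heavy chain, at up to 7.61 FPKM, and *Casq1* at up to 7.44 FPKM. The fast troponin *Tnnt3* was at 11.8, 6.58, and 7.87 FPKM in the WT libraries and at 1.09, 0, and 1.01 FPKM in the KO libraries. *Tnnt1*, another troponin, was at 9.90, 7.25, and 15.2 FPKM in the WT libraries and at 10.1, 4.35, and 5.75 FPKM in the KO libraries. *Tnnt1* and *Mylpf*, at 6.66 FPKM in WT2, were the 2 of 10 tested skeletal muscle genes highest in WT2, against 25.6% of all genes tested. In WT0 the skeletal muscle sum of 56.8 FPKM exceeded the sum of 52.3 FPKM over the 10 heart muscle genes.

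Smooth muscle transcripts ran against the heart muscle sum at its ends. The summed FPKM of the 15 smooth muscle genes was 7588, 4046, and 3984 in the WT libraries and 3603, 2617, and 1473 in the KO libraries, so WT0, lowest in heart muscle, was highest and KO2, highest in heart muscle, was lowest. The log2 fold change of *Tagln*, which encodes SM22, was -1.13 (standard error 0.44, limma adjusted p = 0.591) with all libraries and -0.79 (standard error 0.44, limma adjusted p = 0.786) without WT1 and KO2. For *Myh11*, the smooth muscle heavy chain, it was -1.81 (standard error 0.46, limma adjusted p = 0.463) and -1.66 (standard error 0.44, limma adjusted p = 0.754). The part of the heart muscle transcripts in these values was not tested beyond leaving the libraries out. The authors named *Tagln* and *Myh11* among the most downregulated genes in their own bulk RNA-Seq comparison of such DA. They also reported less of both transcripts in the DA by qRT-PCR, and less Myh11 protein by staining. Their figure legend gives a larger n per group than the 3 libraries used here. The reason for the different outcome was not tested.

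**Figure D5:**
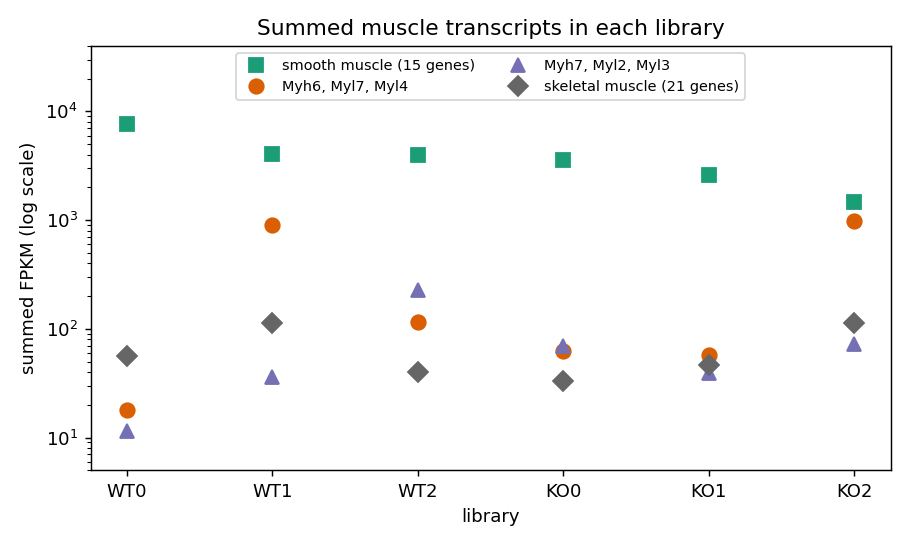
Summed FPKM (log scale) in each library of 15 smooth muscle genes, of the atrial Myh6, Myl7, and Myl4, of the ventricular Myh7, Myl2, and Myl3, and of 21 skeletal muscle genes. The atrial sum is 893 in WT1 and 983 in KO2 and 116 or less elsewhere, and the ventricular sum is highest in WT2 at 226.

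Summed over each list, markers of other tissue near the heart did not mark the same libraries, although single genes did. *Lrrn4*, 1 of 8 epicardial and mesothelial genes, was at 9.16 FPKM in WT1 and 14.3 FPKM in KO2, above every other library. *Plvap*, 1 of 7 endocardial genes, was so too, at 31.7 and 39.2 FPKM. Among all genes tested, 6.56% had WT1 and KO2 above every other library. The summed FPKM of 8 epicardial and mesothelial genes was 42.6, 86.5, and 231 in the WT libraries and 78.5, 164, and 215 in the KO libraries, so WT2 and KO2 were high and WT1 was not. That of 10 Schwann cell genes was 16.9, 20.6, and 40.3 against 49.5, 113, and 180.0, that of 8 erythroid genes was lowest in WT0 and highest in KO1, at 4355 and 27521, and that of 7 leukocyte genes was between 19.4 in WT0 and 210.1 in KO1. The sum of 10 endothelial genes was between 390 in WT1 and 760.2 in KO1, that of 7 endocardial genes was between 1178 in KO0 and 2071 in KO1, and that of 7 lung epithelial genes was at most 27.7, in KO0.

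By their profile over the 6 libraries, 15 genes were most like the mean of the 10, with Pearson correlations of at least 0.956 among 9114 genes averaging at least 5 FPKM. Of these, 4 spanned at least 2 on the log2 scale between libraries. *Mybpc3*, the cardiac myosin-binding protein, was at 1.36, 32.1, and 8.04 FPKM in the WT libraries and at 3.51, 4.14, and 36.3 FPKM in the KO libraries (r = 0.989). *Fabp3*, the fatty acid carrier of heart muscle, was at 7.06, 115, and 30.6 FPKM in the WT libraries and at 20.9, 20.03, and 142 FPKM in the KO libraries (r = 0.975). *Cxadr*, a junction protein, had r = 0.972, and *Actc1* had r = 0.964. The other 11, among them *Kdm1a*, *Tcof1*, *Tmem98*, *Tpr*, *Sept11*, *Usp24*, *Zfp462*, *Smim1*, *Fabp5*, and *Arel1*, varied by no more than 1.32 on that scale. The list is a description over 6 libraries, without a test.

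The promoters were searched on both strands for 5 motifs of muscle regulators in the 250 bases before each start, from RefSeq on GRCm38.p6, where all 10 genes matched and had 13 promoters. The CArG box, which SRF binds, was in those of *Myl7* and *Myl3* and in 1.47% of all 32851 promoters, so 1 atrial and 1 ventricular gene held it. These are shown with the box in capitals.
*Myl7*, chr11:5898824-5898853, minus strand: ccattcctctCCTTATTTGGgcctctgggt
*Myl3*, chr9:110763583-110763612, plus strand: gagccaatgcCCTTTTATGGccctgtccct

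The other motifs were spread thinly. The letters AGATAA, bound by GATA4 and its relatives, were in promoters of *Myl2* and *Tnnt2* and in 9.99% of all promoters. The NKX2-5 motif TNAAGTG was in those of *Myh7* and *Nppa* and in 10.1% of all. The T-box motif AGGTGT, which TBX5 binds, was in those of *Nppa* and *Tnni3* and in 11.8% of all. The MEF2 motif was in 0 of the 13 promoters and in 2.92% of all. No motif was shared by the atrial *Myh6*, *Myl7*, and *Myl4*. A match is a description of these letters, not of a site in use.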

How the data were processed

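FPKM values of 6 libraries of E17.5 DA, 3 labelled WT and 3 labelled Prdm6f/f; SM22-Cre (KO), were analysed. According to the methods and the submitters' processing notes, the authors trimmed the reads (base quality of 30, length of at least 45), aligned them to mm10 with TopHat2, and deposited FPKM values per gene from Cufflinks and Cuffdiff. Versions, annotation, and scaling between libraries are not given in the sources used here. FPKM cannot be turned into counts, so no count test, interval, or detection floor was used. Groups and replicate numbers came from the sample titles, and 0 columns were left unmatched.

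The 12955 of 23997 genes averaging at least 1 FPKM were tested, two-sided, on log2(FPKM + 0.1) with limma 3.58.1 in R 4.3.3 (lmFit, then eBayes with trend, Benjamini-Hochberg adjustment, threshold 0.05). This scale understates changes of low genes. The authors' Cuffdiff test works on alignments and was not run. The fit was tested on simulated data. The members, gene lists, tests, and alternatives were chosen with earlier results of these data known. Genes named are the 10 members, the 15 most correlated genes, list genes averaging at least 5 FPKM or that define a cell type, and, beside these, genes whose values were seen first (*Srf* and *Hopx* as the 2 counted, *Kcnj3*, *Rn45s*, *Mhrt*, *Xist*, and *Ddx3y*). Some genes that this rule takes are not reported here. The authors used littermates as controls, but the labels do not say whether same-numbered libraries are pairs, so the main fit used none. Deviations of same-numbered libraries correlated at 0.122, -0.0761, and -0.00878, which cannot show whether they were paired. Gene positions and coding sequences came from GENCODE vM21 on GRCm38, the assembly of mm10, and were aligned with Biopython 1.88. Alternatives were another pseudocount, filter, or scaling, no variance trend, a replicate block, and libraries left out.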

Additional observations from a re-analysis of the deposited data

How the results depend on the processing

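With each other setting for the pseudocount, filter, scaling, variance trend, and replicate block, 0 of the heart muscle genes had an adjusted p under 0.05, and each kept the sign of its log2 fold change. The lowest adjusted p of any of them in any setting was 0.475, for *Myl3*. With the replicate block, the log2 fold changes of the 9 genes ranged from -1.19 to 1.59 (lowest adjusted p = 0.654 in limma), and the block changed no call. The count of all genes called in limma, 1, was 2 when the variance trend was dropped and 3 without WT1 and KO2, and ranged from 1 to 3 with 1 library left out, at 3 without WT1, KO0, or KO2.

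Leaving out 1 library turned the direction of the median log2 fold change of the heart muscle genes, which ranged from -1.33 to 1.19 and was positive without WT1, WT2, KO0, or KO1. The ranges were -2.36 to 1.19 for *Myh6*, -1.53 to 0.63 for *Tnni3* (both positive without WT1, KO0, or KO1), -0.51 to 2.08 for *Myl4*, -1.33 to 1.36 for *Myl7* (both negative without WT0 or KO2), -0.97 to 0.58 for *Myh7*, -1.33 to 0.99 for *Myl2* (both positive without WT2), and -0.18 to 2.60 for *Nkx2-5* (negative without WT2 or KO2). *Myl3* and *Tnnt2* kept their signs. The mean log2 ratios of atrial to ventricular genes kept their sign with a pseudocount of 1 or none. Depth is unknown, and 3 libraries a group limit the precision.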

Other observations

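In all, 54 genes stood at least 4-fold higher in WT1 than in WT0 and WT2 and in KO2 than in KO0 and KO1, and 33 of them were on none of the lists. The genes named here were chosen after their values were seen. Several are known from the muscle sarcomere and its upkeep. *Trim55*, a ubiquitin ligase of the sarcomere, was at 25.6 FPKM in WT1 and 26.6 FPKM in KO2 and at 4.87 FPKM or less elsewhere. *Smyd1*, a methyltransferase needed for sarcomere assembly, was at 8.78 and 13.2 FPKM in WT1 and KO2 and at 0.647 FPKM or less elsewhere, and *Unc45b*, a myosin chaperone, was at 6.73 and 11.3 FPKM and at 2.76 FPKM or less elsewhere. *Mybphl*, a myosin-binding protein of the atria, was at 7.46 and 12.9 FPKM and at 0.748 FPKM or less elsewhere.

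Others among the 54 genes are known from other tissues. *Afp*, a protein of fetal liver and yolk sac, was at 11.4 FPKM in WT1 and 25.004 FPKM in KO2 and at 2.84 FPKM or less elsewhere, and *Agr2*, a secretory gene of epithelia, was at 12.2 and 14.4 FPKM and at 1.65 FPKM or less elsewhere.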
